A study of Danio rerio with 25 samples.

Results

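RNA of whole WT sibling larvae at 7 dpf was compared between 3 libraries from larvae that had completed eNMES and 4 libraries from untreated controls. These are 7 of the 24 libraries with a table of counts, and every library pooled 2 larvae. The fish came from the *sapje* line, which carries the ta222a allele of *dmd*, the gene of dystrophin. WT siblings are the clutch mates whose muscle looked healthy under polarized light, so that larvae with no mutant copy and carriers of a single copy are not told apart. eNMES is the endurance setting of neuromuscular electrical stimulation, with pulses of high frequency and low voltage. Treated larvae were anaesthetised with tricaine and stimulated once a day at 2, 3 and 4 dpf, and they had no further session until 7 dpf. Controls had no session of NMES, and whether they were given the tricaine of the sessions is not stated in the sources used here. The paper describes imaging of birefringence and swim tests on each day of the treatment and recovery periods, with tricaine given before imaging. All larvae were raised at 28.5 °C and fed from 5 dpf, and they were grouped by severity and by change in birefringence before extraction. The remaining 17 libraries, from *dmd* mutants with eNMES (n = 9) and without (n = 8), entered the same fit and are used here to show where WT siblings differ. Nothing in the labels says that libraries of a group came from separate clutches, so p-values measure a spread between pairs of larvae. The fit estimates that spread over all its groups, *dmd* mutants included, and not from WT siblings alone.

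The circadian clock is a loop of transcription factors. CLOCK and BMAL activate the period and cryptochrome genes, whose products block CLOCK and BMAL in turn, while Rev-erb receptors repress BMAL and proteins of the PAR bZIP family carry the rhythm to output genes. In zebrafish, most tissues of a larva keep this rhythm and are reset by light directly, so that a large set of genes in metabolism, stress signalling and vision rises and falls through the day. The time of day at which each library was collected is not given in the sources used here. In WT siblings the clock genes of the controls and of the eNMES libraries stood at opposite ends of their range, so time of day (clock state) and treatment are confounded here and cannot be told apart in this comparison.

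Of the 25832 genes that reached 10 counts in sum over the 24 libraries, 763 were called, which is 2.95% of the genes tested. The call required an adjusted p under 0.1 together with a log2 fold change beyond 0.6 in either direction in edgeR's quasi-likelihood test, with Benjamini-Hochberg adjustment over all genes. Called genes that were higher with eNMES numbered 271 (1.05% of genes tested) and called genes that were lower numbered 492 (1.9%). Of the 16958 genes with a mean of at least 50 normalized counts, 596 were called (3.51%), with 189 higher (1.11%) and 407 lower (2.4%). Lower genes also moved further. Their median log2 fold change was -1.08 against 0.78 for the higher genes, and 268 of them moved by more than 1 on the log2 scale against 79 of the higher genes. Among all genes tested the signs were balanced, with 51.2% above 0. The groups did not overlap in 252 of the 271 higher genes and 482 of the 492 lower genes. The genes were called from these same libraries, so this separation follows largely from the call. Among all genes with a symbol, the 3 eNMES libraries lay above the 4 controls in 10.5% and below them in 10.6%. The same 271 and 492 genes had median log2 fold changes of 0.01 and 0.07 in *dmd* mutants. The number of calls fell when single libraries were left out, and such a fit also has fewer libraries to test with. Calls numbered 259 with eNMES replicate 1 left out, 275 with replicate 3 left out and 421 with replicate 2 left out. With control replicate 1 or 3 left out they numbered 388 and 481. In all, 133 genes (45 higher and 88 lower) were called in each of the 7 fits that left out a library, and 59 were called in none of them.

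The leading higher genes were small regulators and several genes with little annotation. *YPEL3*, a member of the yippee family, measured 681, 794, 657 and 708 normalized counts in the controls and 1419, 1319 and 1424 with eNMES. *cited4b*, of the CITED family of co-regulators, measured 615, 588, 599 and 704 in the controls and 1273, 1123 and 1312 with eNMES. No eNMES library came near a control in either gene, and the log2 fold changes were 0.97 ± 0.13 (SE) and 0.98 ± 0.15 (edgeR's quasi-likelihood test, adjusted p = 0.0023 and 0.00269). *si:ch211-191a16.2* and *si:ch211-191a16.3*, which are named from the same genomic clone, rose by 1.53 ± 0.23 and 1.08 ± 0.17. *SLC25A48*, of the mitochondrial carrier family, had a mean of 241 ± 42.2 counts (SD, n = 4) in controls and 632 ± 80.7 (n = 3) with eNMES. *PXDC1* (log2 fold change 1.2), *LIG4* (0.93), the ligase that joins broken DNA ends, *SPSB3* (0.73) and *TMEM184C* (0.69) were also among the 10 leading higher genes. All 10 kept the call whichever of the 7 libraries was left out, and none was called in *dmd* mutants.

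The 10 leading lower genes held 4 of the clock, *NR1D1*, *NR1D2*, *ciarta* and *dbpa*, which are described below. *XBP1*, the transcription factor of the unfolded protein response that expands the secretory pathway, measured 2903, 2385, 2914 and 2591 normalized counts in controls and 1603, 1526 and 1426 with eNMES. Its log2 fold change of -0.83 ± 0.12 (edgeR's quasi-likelihood test, adjusted p = 0.00269) left no overlap between the groups. *SPRY4*, an inhibitor of receptor tyrosine kinase signalling, fell by 0.94 on the log2 scale. *SRD5A2* (ENSDARG00000043587), a steroid reductase, had a log2 fold change of -0.85, *GABRR2* (ENSDARG00000052982), a GABA receptor subunit, -0.69, *zgc:154093* -0.81 and *si:rp71-39b20.4* -1.43. These 10 genes also kept the call in all 7 fits. For each of the 20 leading genes the change in WT siblings differed from that in *dmd* mutants by the interaction test, at adjusted p under 0.1, and in 18 of them it was also larger than 0.6 on the log2 scale. Over all genes 477, or 1.85%, passed both thresholds. The leading genes were chosen by their change in WT siblings, which is itself a term of the interaction. Their passing it follows largely from that choice.

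Of 42 clock genes tested, 14 were called lower (33.3%) and 0 higher, against 1.9% and 1.05% of all genes, and their median log2 fold change was -0.52. The 2 groups did not overlap in 26 of the 42, each of them lower with eNMES. Among the repressors of the loop, *PER1* (ENSDARG00000056885) measured 493, 706, 710 and 552 normalized counts in controls and 169, 143 and 86.2 with eNMES, a log2 fold change of -2.21 ± 0.40 (adjusted p = 0.00811, edgeR's quasi-likelihood test). *CRY1* (ENSDARG00000045768), a cryptochrome, measured 2679, 2700, 2680 and 2865 in controls and 1032, 918 and 992 with eNMES, a log2 fold change of -1.48 ± 0.36. In both genes the highest eNMES library was well below the lowest control. *CRY1* lost the call without any one of the 3 eNMES libraries (adjusted p up to 0.109). The other *PER1* gene (ENSDARG00000012499) and *CRY2* fell by 1.39 and 0.76. *PER2*, the period gene that light induces in zebrafish, had a mean of 1811 counts in controls and 418 with eNMES with no overlap, but did not pass the test (log2 fold change -2.11 ± 0.73, adjusted p = 0.116). The 17 *dmd* mutant libraries ran from 507 to 3896 counts of *PER2*, and the fit pools that spread, while the 3 WT eNMES libraries ran from 386 to 445.

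The Rev-erb receptor *NR1D1* had the largest fall of the called clock genes. It measured 1177, 1256, 1547 and 970 normalized counts in controls and 230, 205 and 176 with eNMES, a log2 fold change of -2.60 ± 0.42 (adjusted p = 0.00482, edgeR's quasi-likelihood test). *NR1D2* fell by 0.82 and *nr1d2a* by 1.70. Of the PAR bZIP factors and the related repressors of the *nfil3* family, *nfil3-6* fell by 1.69, *dbpa* by 0.95, *dbpb* by 0.66 and *tefb* by 0.62. The repressors *ciarta*, *ciartb* and *BHLHE41* fell by 0.99, 0.90 and 0.76. The activators did not pass. The log2 fold changes of the *CLOCK* genes were 0.14 (ENSDARG00000011703) and 0.03 (ENSDARG00000003631), and those of the *BMAL1* genes were -0.17 (ENSDARG00000006791) and 0.10 (ENSDARG00000035732). Of these only *BMAL1* ENSDARG00000006791 had no overlap, at 656 to 749 normalized counts in controls and 615 to 631 with eNMES. *PER3* and *cry3a*, at -0.09 and 0.04, did not pass either. When 1 library was left out, the list of period and cryptochrome genes had 4 calls in the fits without a control and 2, 3 and 3 calls without eNMES replicate 1, 2 and 3, and it had 7 calls when the 7 WT sibling libraries were fitted alone. The 4 calls among PAR bZIP and *nfil3* genes became 2 without control replicate 2 or without eNMES replicate 3. *nr1d2a* was called in 2 of the 7 fits, without control replicate 1 or 4.

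**Figure D1:**
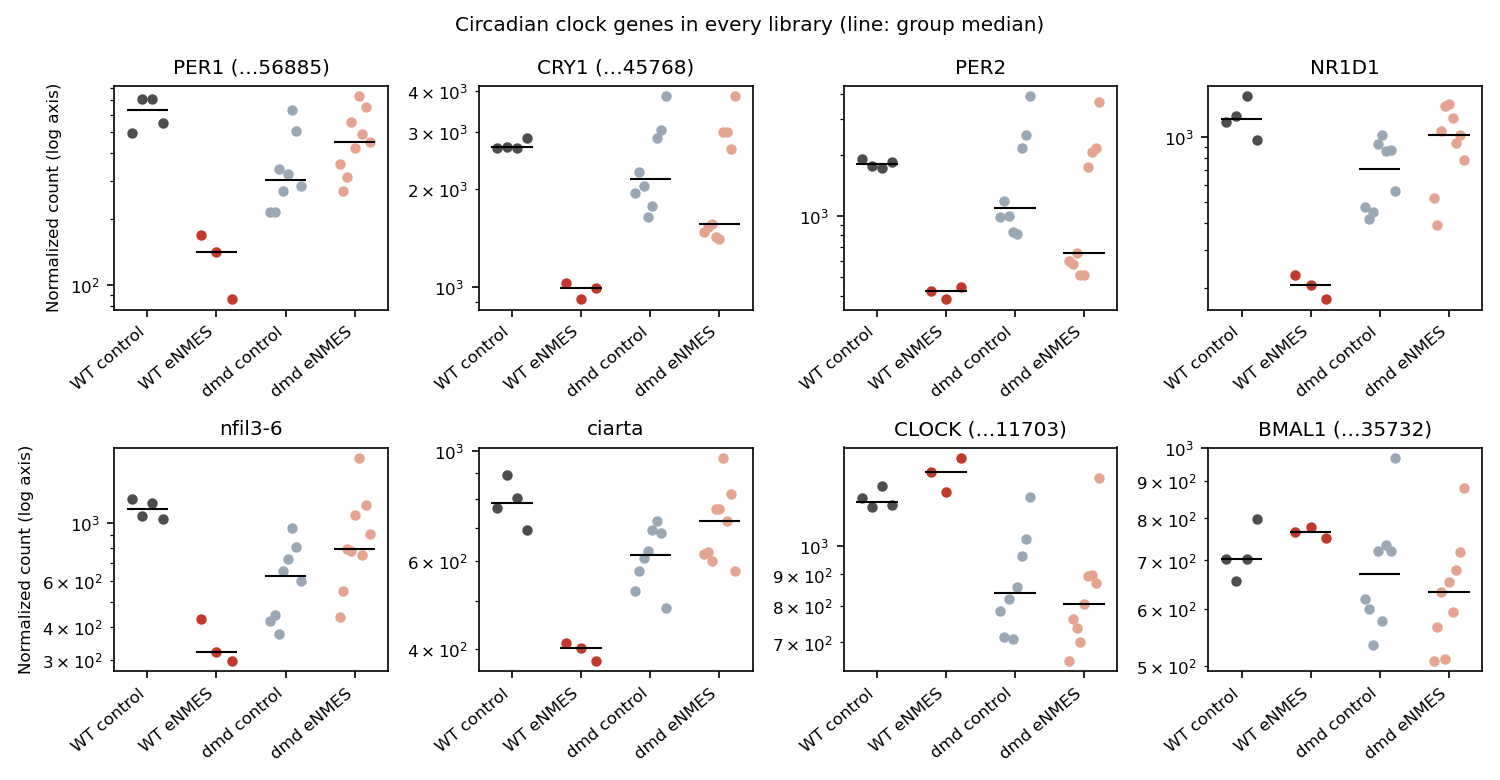
Normalized counts (log axis) of 8 clock genes in each library, by group, with the group median as a line. In PER1, CRY1, PER2, NR1D1, nfil3-6 and ciarta the 3 WT eNMES libraries lie below the 4 WT controls, and in all of these but nfil3-6 they also lie below every dmd mutant library. CLOCK and BMAL1 differ little between the 2 WT groups.

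The *dmd* mutant libraries show how far this clock state extends beyond the 2 WT sibling groups. A first component over the clock genes of all 24 libraries ran from 2.4 to 3.08 in the WT eNMES libraries and from -2.82 to -2.27 in the WT controls. The same component in *dmd* mutants ran from -2.26 to 2.5 in controls and from -2.86 to 2.86 with eNMES, so that both ends held treated and untreated mutants. A score was therefore computed from the clock genes in the 17 *dmd* mutant libraries alone, where it explained 64% of their variance. It separated 10 libraries between -1.24 and -0.33 from 7 libraries between 0.85 and 1.52, and *PER2* ran from 507 to 1180 counts in the first set and from 1740 to 3896 in the second. With treatment in the model, 3229 genes varied with the score at an adjusted p under 0.1 in edgeR's quasi-likelihood test, which is 12.5% of the genes tested. The 2 sets of mutant libraries can differ in more than the clock, and such differences cannot be told apart from it here.

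With clock genes left out, 341 of the 749 called genes also varied with the score in *dmd* mutants (45.5%, against 11.4% of the genes not called), which is 10.7% of the 3201 genes that did so. In 338 of the 341 the direction was the one in which a low score matches WT eNMES, and in 3 it was the other. Among genes lower with eNMES, 242 of 478 varied with the score (50.6%), and 86.8% had a positive slope. Among genes higher with eNMES, 99 of 271 did (36.5%), and 13.3% had a positive slope, against 48.9% of all genes. Of the 20 leading genes, *NR1D1*, *NR1D2*, *ciarta* and *dbpa* are clock genes that define the score and are left out here. Among the rest, *PXDC1*, *si:rp71-39b20.4* and *SPRY4* varied with the score (adjusted p = 0.0103, 0.0331 and 0.0603, edgeR's quasi-likelihood test). Genes that vary with the score in mutants have a wider spread in the joint fit, which pools all 4 groups. When the clock component was added to the model as a covariate, 94 genes were called in WT siblings, 47 in each direction, and 37 of them were also called without it. Within WT siblings this component separates the treated from the untreated libraries completely, so the covariate and the treatment are bound together there.

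**Figure D2:**
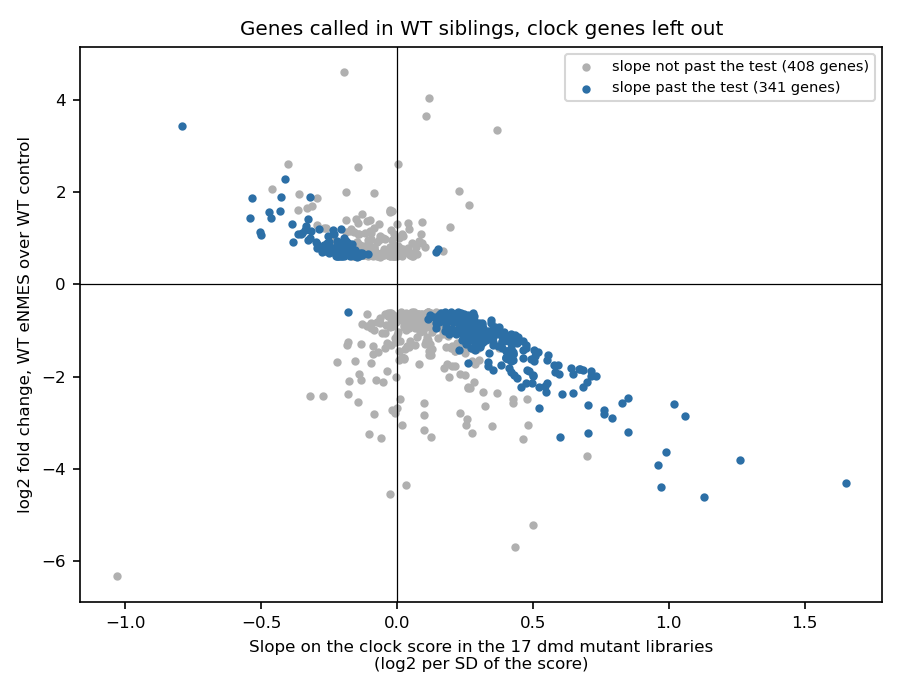
Each point is 1 of the 749 genes called in WT siblings, clock genes left out, with its log2 fold change in WT siblings against its slope on the clock score in the 17 dmd mutant libraries. Of the 341 genes whose slope passed the test, 338 have a slope of the opposite sign to the fold change.

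Lists of genes were then used to describe processes and tissues. The lists and their members were chosen with earlier results of these data known, so their shares are descriptive and not independent of these data. Their counts are to be read against those over all genes, of which 2.95% were called (1.05% higher and 1.9% lower). They are also to be read against the 10.5% upward and 10.6% downward without overlap among genes with a symbol. Shares that varied with the clock score in mutants are to be read against 12.4% of all genes outside the clock. The lists hold 2194 of the genes tested, of which 18 were called higher and 97 lower. Whole larvae were extracted, so fewer cells of a type and less RNA per cell cannot be told apart in any of them. Symbols are those of the reference table, in which many zebrafish genes carry the upper-case symbol of the human gene and duplicated genes can share it.

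**Figure D3:**
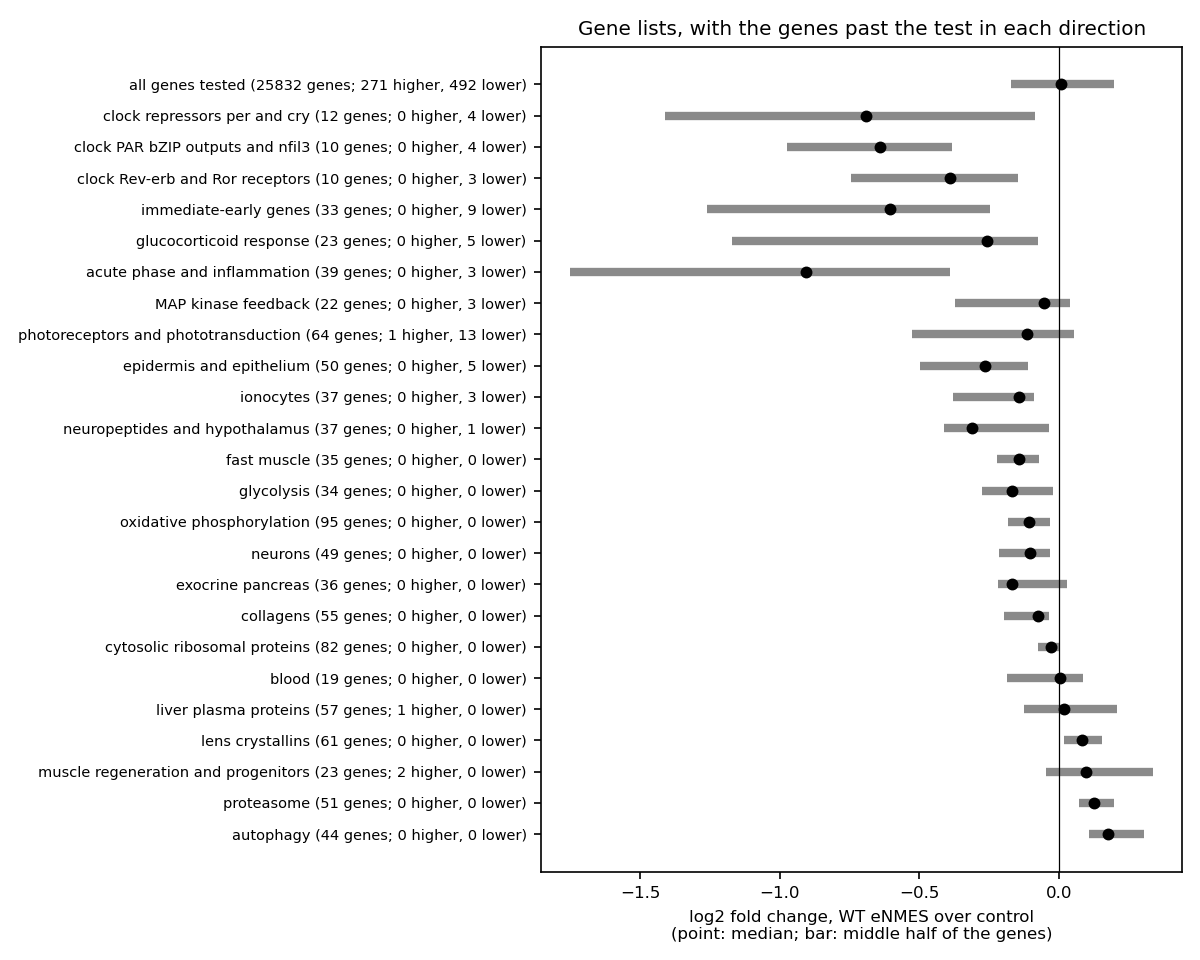
Median (point) and interquartile range (bar) of the log2 fold changes, WT eNMES over WT control, for all genes tested and for 24 lists, with the number of genes called in each direction beside the name. The clock lists, immediate-early genes and the inflammation list lie furthest to the left, and autophagy and proteasome genes lie to the right of 0.

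Immediate-early genes, which neurons, muscle and other cells switch on within minutes of a stimulus, were lower with eNMES. Of 33 tested, 9 were called lower and 0 higher (27.3% called, against 2.95%), and the median log2 fold change was -0.61. *FOSB*, a subunit of the AP-1 factor, measured 128, 119, 138 and 113 normalized counts in controls and 10.4, 18.1 and 11.5 with eNMES, a log2 fold change of -3.22 ± 0.79. *NR4A1*, an orphan nuclear receptor, measured 1001, 995, 1103 and 723 in controls and 212, 141 and 104 with eNMES, a log2 fold change of -2.65 ± 0.69. Both genes separated the groups completely. *FOSL2* fell by 1.15 and *EGR3* by 0.63, whereas *egr1*, the early gene most used as a marker of activity, had a log2 fold change of 0.04 ± 0.34 and overlapping groups. Of the 33, 7 varied with the clock score in mutants (21.2%, against 12.4% of all genes outside the clock). The number of calls was 0, 3 and 1 without eNMES replicate 1, 2 and 3, and it was 5 without control replicate 1 or 3.

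The MAP kinase feedback list holds inhibitors that early signalling induces and that then silence the pathway, with transcription factors such as *etv5b*. Of its 22 genes 3 were called lower and 0 higher (13.6%, against 2.95% of all genes), with a median of -0.05. *DUSP5*, a phosphatase of ERK, measured 397, 366, 437 and 406 normalized counts in controls and 117, 100 and 84.2 with eNMES, a log2 fold change of -2.0 ± 0.41 (adjusted p = 0.0133, edgeR's quasi-likelihood test). *DUSP4* fell by 1.28 and *SPRY4* by 0.94. *DUSP5* and *SPRY4* kept the call in all 7 fits, and *DUSP4* lost it without eNMES replicate 1 (adjusted p = 0.101). In mutants 8 of the 22 varied with the clock score (36.4%), these 3 among them. In insulin signalling 2 of 27 genes were called (7.41%), both regulatory subunits of phosphoinositide kinase. *PIK3R1* went from 7287 ± 620 counts (SD, n = 4) to 3336 ± 354 (n = 3) and was called in all 7 fits, while *pik3r3a* fell by 2.24 and lost the call without any one of the 3 eNMES libraries. Both varied with the clock score in mutants (adjusted p = 0.00292 and 0.00151).

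Targets of the glucocorticoid receptor, which cortisol switches on under stress and at the daily peak of the hormone, were lower in part. *FKBP5*, a co-chaperone that the receptor induces, measured 7028, 8392, 8547 and 4750 normalized counts in controls and 676, 142 and 61.3 with eNMES. The lowest control lay far above the highest eNMES library, and the log2 fold change was -4.61 ± 1.36 (adjusted p = 0.0683, edgeR's quasi-likelihood test). *PCK1*, an enzyme of gluconeogenesis, measured 16675, 16262, 20519 and 15178 in controls and 5945, 8271 and 5395 with eNMES. *sgk2b*, *tsc22d3* and *sgk1*, a pair of kinases and a leucine zipper protein, fell by 1.96, 1.19 and 1.09. The receptor gene itself, *NR3C1*, had a log2 fold change of 0.28 at an adjusted p of 0.0386, below the fold required for a call. The list is wider than the targets of the receptor. It also holds corticoid receptors, enzymes of steroid metabolism and genes that control cortisol release, such as *CRH* and *POMC*. Of its 23 genes 5 were called lower and 0 higher (21.7% called, against 2.95% of all genes). The TPM summed over the list ran from 1523 to 1924 in controls and from 674 to 839 with eNMES. Abundant members such as *PCK1* and *FKBP5* weigh most in such a sum. *TAT* and *g6pc1a.1*, of the same list, both had a log2 fold change of -0.09 and did not pass (named after their values were seen). Over the settings tried, the list median ran from -0.66 to -0.05. The number of calls in the list fell when single libraries were left out. Such a fit also has fewer libraries to test with, which was not told apart from the weight of any 1 library. Without control replicate 1, 2 or 3 there were 1, 2 and 1 calls, and without any one eNMES library there were 0, while the 7 libraries fitted alone gave 9. In mutants 11 of the 23 varied with the clock score (47.8%).

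*KLF9*, a zinc finger factor that both this receptor and thyroid hormone induce, had a mean of 5033 ± 456 normalized counts (SD, n = 4) in controls and 1170 ± 346 (n = 3) with eNMES. The groups were far apart, yet the gene did not pass (adjusted p = 0.111, edgeR's quasi-likelihood test), and it is named here after its values were seen. In lipid metabolism *LPIN1*, a phosphatidate phosphatase, had a log2 fold change of -0.92, *CPT1B*, the carnitine transferase that brings fatty acids into muscle mitochondria, -1.22, *UCP2*, an uncoupling protein, -1.14 and *ELOVL1* (ENSDARG00000099960), an elongase, -1.66. *ANGPTL4*, an inhibitor of lipoprotein lipase that fasting raises, went the other way. It measured 354, 413, 353 and 532 in controls and 751, 1135 and 1194 with eNMES, a log2 fold change of 1.31 ± 0.38. *mlxipl*, the carbohydrate response factor, rose by 1.08 at fewer than 30 normalized counts in each library. Calls numbered 3 of 41 in the fatty acid oxidation list and 3 of 28 in the lipid synthesis list (2.95% of all genes). In these lists 9 and 8 genes had no overlap downward (22% and 28.6%) and 4 and 2 upward (9.76% and 7.14%). Among genes with a symbol 10.6% and 10.5% did so. Over the settings tried, the list medians ran from -0.08 to -0.02 and from -0.15 to -0.03. *LPIN1*, *CPT1B* and *UCP2* lost the call in each of the 7 fits and also varied with the clock score in mutants. *ANGPTL4* kept the call in 1 of the 7, without control replicate 4, *ELOVL1* in 2, without control replicate 2 or 4, and *mlxipl* in 3.

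In the hypoxia list 2 of 30 genes were called higher and 3 lower (16.7%, against 2.95% of all genes). *SLC2A1* (ENSDARG00000007412), a glucose transporter, had 415 ± 47.1 normalized counts in controls and 213 ± 28.4 with eNMES and was called in all 7 fits. *PFKFB4*, which controls glycolytic flux, measured 2100, 2196, 2317 and 1815 in controls and 443, 403 and 301 with eNMES, a log2 fold change of -2.46 ± 0.70 (adjusted p = 0.0605, edgeR's quasi-likelihood test). *hif1al* fell by 1.38, while *NDRG1* (ENSDARG00000010420) and *ADM* (ENSDARG00000069027) rose by 0.71 and 0.60. The list therefore moved in both directions, around a median of -0.02. The list had 1 call without control replicate 1 or eNMES replicate 3, 2 without eNMES replicate 1, and 3 without control replicate 2 or eNMES replicate 2. In mutants 10 of the 30 varied with the clock score (33.3%), the 3 lower genes among them.

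Genes of the integrated stress response, which slows translation and raises amino-acid synthesis, had 4 of 28 called lower and 1 higher (17.9%, against 2.95% of all genes). *CHAC1*, a glutathione-degrading enzyme, went from 11300 ± 1909 normalized counts (SD, n = 4) to 5671 ± 541 (n = 3), *TRIB3* fell by 0.72, and *mthfd2* and *sesn2* fell by 0.97 and 0.90. *nupr1b*, a stress-induced nuclear protein, rose by 1.14. None of the 5 kept the call in all 7 fits. The list had 2 calls without control replicate 1 or eNMES replicate 2, 3 without control replicate 3 and 0 without eNMES replicate 3. In mutants 9 of the 28 varied with the clock score (32.1%). In the secretory pathway *XBP1* was the only call among 34 genes of the unfolded protein response, and *SEC61A1* (ENSDARG00000005675), the channel of the endoplasmic reticulum, the only one among 44 of translocation and vesicle coats (log2 fold change -0.76). Heat shock genes had a median of 0.04, and 1 of 31 was called, the small heat shock gene *hspb6*, which measured 477, 514, 387 and 213 in controls and 99.3, 91.4 and 79.5 with eNMES. *SEC61A1* lost the call without eNMES replicate 1, and *hspb6* lost it without any one eNMES library.

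The list of antioxidant genes under NRF2 also holds heme oxygenases and the repressor *BACH1*. It gave 2 calls among 39, both higher (5.13%, against 2.95% of all genes). *NQO1*, a quinone reductase, measured 511, 661, 656 and 641 normalized counts in controls and 876, 1028 and 1069 with eNMES, a log2 fold change of 0.68 ± 0.17. *BACH1*, the heme-binding repressor that competes with NRF2, rose by 0.62 ± 0.14. *HMOX1*, the heme oxygenase gene that the study followed up (*hmox1a* in the paper), had means of 160 and 273 counts and no overlap between the groups, but its log2 fold change of 0.77 ± 0.26 did not pass (adjusted p = 0.111, edgeR's quasi-likelihood test). *NQO1* lost the call without control replicate 1 and without eNMES replicate 3. *BACH1* lost it without control replicate 3 or 4 and without eNMES replicate 1. The median of the list was 0.02.

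Autophagy genes, which let cells digest their own proteins and organelles in the lysosome, were mostly higher with eNMES, although none was called. Of 44 genes, 81.8% had a log2 fold change above 0 (51.2% of all genes did), the median was 0.18, and in 20 the 3 eNMES libraries lay above the 4 controls (45.5%, against 10.5% of genes with a symbol). At any fold change 13 passed an adjusted p of 0.1 (6.48% of all genes did), 12 of them higher. *nbr1a*, a receptor that carries cargo to the autophagosome, had a log2 fold change of 0.38 ± 0.08 (adjusted p = 0.0174, edgeR's quasi-likelihood test). *ATG14*, a subunit of the lipid kinase that starts the membrane, had 0.48, *ATG4B*, a protease of LC3, 0.49, and *TFEB*, the factor that switches on lysosome and autophagy genes, 0.46. *OPTN*, a receptor for damaged mitochondria, was lower at -0.57, and *ULK2*, a kinase that starts the process, had a mean of 4959 normalized counts in controls and 2389 with eNMES (log2 fold change -1.05, adjusted p = 0.106). The genes after *nbr1a* were named after their values were seen. In mutants, 8 of the 44 varied with the clock score (18.2%, against 12.4% of all genes outside the clock), 5 with a negative slope.

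Proteasome subunits were also mostly higher. Their median log2 fold change was 0.12, 86.3% of 51 were above 0, and 9 had no overlap upward against 1 downward (17.6% and 1.96%, against 10.5% and 10.6% of genes with a symbol). *psmc1b*, an ATPase of the cap, was the only subunit to pass at any fold change (0.30 ± 0.10, adjusted p = 0.0897 in edgeR's quasi-likelihood test). The median in *dmd* mutants was 0.10, and 14 of the 51 varied with the clock score there (27.5%), all with a positive slope. Among called genes a positive slope went mostly with lower counts in WT eNMES. These slopes thus run opposite to the change of the subunits in WT siblings, and the reason was not tested. The TPM summed over the subunits ran from 2271 to 2553 in controls and from 2680 to 2844 with eNMES. Cytosolic ribosomal proteins had a median of -0.03, with 0 of 82 called and 0 without overlap. The list of muscle atrophy and FOXO genes, which also holds the co-regulator *cited4b*, had a median of -0.03. Of its 31 genes *cited4b* was the only call.

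Genes of energy metabolism were mostly lower by small amounts. In glycolysis the median of 34 genes was -0.17, and the groups did not overlap in 15, each lower with eNMES (44.1%, against 10.6% of genes with a symbol). At any fold change 11 passed an adjusted p of 0.1 in edgeR's quasi-likelihood test, and none was called, since their folds were below the minimum. *PFKM* (ENSDARG00000014179), phosphofructokinase of muscle, had a log2 fold change of -0.49, *GAPDHS* -0.31 and *PKM* (ENSDARG00000099730), a pyruvate kinase, -0.33. In oxidative phosphorylation the median of 95 genes was -0.11, and 19 had no overlap downward (20%, against 10.6% of genes with a symbol) and 0 upward. *cycsb*, cytochrome c, had -0.45 and was the only one with *SDHB*, at -0.28, to pass an adjusted p of 0.1. In mutants none of the 95 and 3 of the 34 genes varied with the clock score (0% and 8.82%).

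**Figure D4:**
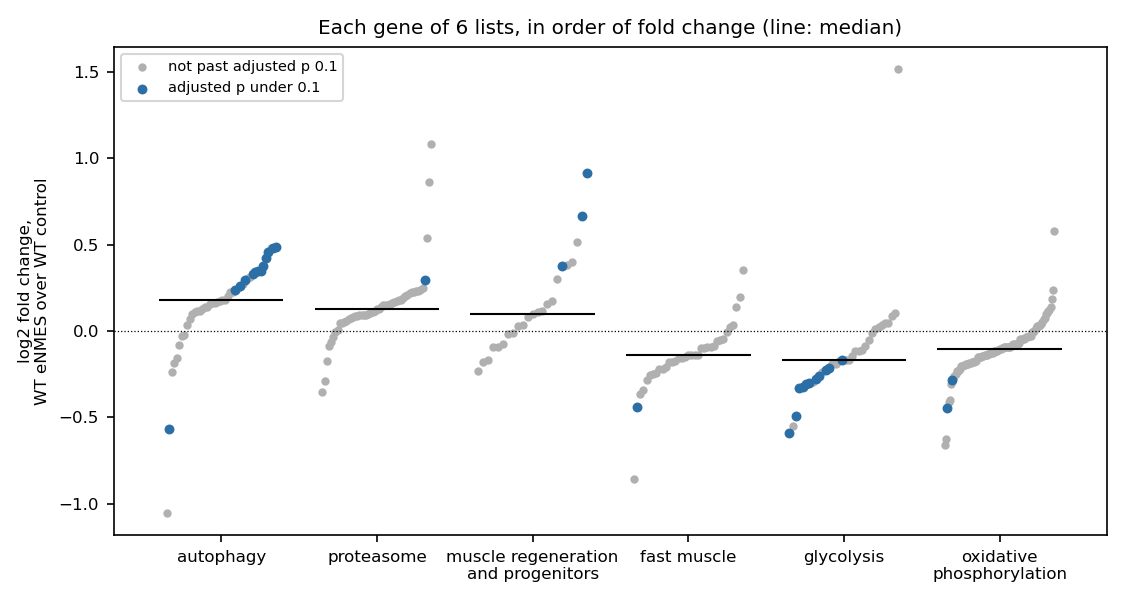
Log2 fold change, WT eNMES over WT control, of each gene in 6 lists, in order within the list, with the list median as a line and genes with an adjusted p under 0.1 in blue. Autophagy and proteasome genes lie mostly above 0 (medians 0.18 and 0.12), muscle progenitor genes have a median of 0.10, and fast muscle, glycolysis and oxidative phosphorylation genes mostly below (medians -0.14, -0.17 and -0.11).

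Acute phase and inflammatory genes had the lowest median of any list, -0.91, with 3 of 39 called lower (7.69%, against 1.9% of all genes) and 16 without overlap downward (41%, against 10.6% of genes with a symbol). The controls themselves differed widely here, and the median was -0.60 without control replicate 1 and -1.8 with the clock component as a covariate. *MMP9*, a protease of neutrophils and wounds, measured 5353, 1665, 2424 and 1510 normalized counts in controls and 447, 1029 and 406 with eNMES. *nfkbiab*, an inhibitor of NF-kB, measured 4511, 1626, 2946 and 1636 in controls and 994, 824 and 715 with eNMES. *FOSL1*, an AP-1 subunit, measured 705, 334, 523 and 231 in controls and 128, 105 and 86.2 with eNMES. Control replicates 1 and 3 were the highest in all 3 genes, and no eNMES library overlapped with a control. No call of the list remained without control replicate 1 or without eNMES replicate 1 or 3, and 1 was left without control replicate 3 or eNMES replicate 2. One of the 39 varied with the clock score in mutants (2.56%). Markers of macrophages, neutrophils and lymphocytes had a median of 0.01, with *MMP9* as the only call of 45, and their summed TPM ran from 876 to 940 in controls and from 734 to 865 with eNMES. Among antiviral genes *IRF7* and *mxe* were called lower of 29 (6.9%), control replicate 1 was again highest in both, and both lost the call without it and without any one eNMES library.

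Collagens and matrix glycoproteins were mostly lower, by small amounts. None of 55 collagen genes was called, their median was -0.07, and 11 had no overlap downward (20%, against 10.6% of genes with a symbol) and 0 upward. The median of the collagens was -0.14 without eNMES replicate 2 and -0.17 with the clock component as a covariate. Of 49 matrix glycoproteins and TGF-beta genes 15 had no overlap downward (30.6%) and 2 upward (4.08%), around a median of -0.12. One of the 49 was called, *ccn1l1* at 0.78, which lost the call in all 7 fits. *TGFBI*, which the study named from its RNAseq, had a log2 fold change of -0.17 ± 0.12, and both genes named *POSTN* had -0.25 (ENSDARG00000043806) and -0.26 (ENSDARG00000104267), none of them past the test. Among matrix proteases and lysyl oxidases 4 of 44 were called, each lower (9.09%, against 1.9% of all genes). *ADAMTS1*, a protease of proteoglycans, measured 751, 216, 493 and 261 normalized counts in controls and 65.3, 82.4 and 48.8 with eNMES, a log2 fold change of -2.72 ± 0.61 (adjusted p = 0.0205, edgeR's quasi-likelihood test), and lost the call without eNMES replicate 3 (adjusted p = 0.102). *loxl2a*, a lysyl oxidase, and *ADAMTS8* fell by 1.51 and 1.47, and *MMP9* is given above. The number of calls was 4 without control replicate 4, 3 without control replicate 2, 1 without control replicate 1 or 3 or eNMES replicate 1 or 2, and 0 without eNMES replicate 3. *ITGB4* and *itga6b*, the integrin pair of the hemidesmosome that holds skin to its basement membrane, had log2 fold changes of -0.80 and -1.2, and they were the only calls among 72 genes of integrins, laminins and the basement membrane (2.78%). Both lost the call without any one eNMES library, *itga6b* also without control replicate 1, and both varied with the clock score in mutants.

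Photoreceptor genes held more calls than any other of the 63 lists. Of 64 tested, 13 were called lower and 1 higher (21.9%, against 2.95% of all genes), although the median was -0.12. Photoreceptors hyperpolarize in light through a cascade in which an opsin activates a phosphodiesterase, cGMP falls and cation channels close, and kinases, arrestins and calcium sensors of guanylate cyclase then end the response. *guca1c*, a calcium sensor of the cyclase, measured 727, 709, 612 and 457 normalized counts in controls and 53, 46.2 and 23.9 with eNMES, a log2 fold change of -3.93 ± 0.87 (adjusted p = 0.0196, edgeR's quasi-likelihood test). *GRK7* (ENSDARG00000020602), the kinase of cone opsins, measured 2754, 2281, 2112 and 2437 in controls and 199.6, 199.9 and 177 with eNMES, a log2 fold change of -3.64 ± 0.86. The groups were far apart in both. *guca1d*, of the same sensor family, had a log2 fold change of -4.39, with 54 to 76.7 counts in controls and 1.89 to 3.83 with eNMES. *guca1c* lost the call without eNMES replicate 3 (adjusted p = 0.102), and *GRK7* and *guca1d* lost it without replicate 1 or 3.

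*guca1g* and *GUCA1A* (ENSDARG00000100747), further sensors, fell by 3.21 and 1.98. The log2 fold changes of the cone arrestins *ARR3* were -1.99 (ENSDARG00000056511) and -2.85 (ENSDARG00000098475). The guanylate cyclase *gucy2d* fell by 1.66, and the inhibitory subunit of the cone phosphodiesterase, *pde6ha*, fell by 1.09. The channel gene *CNGA3* fell from 238 ± 40.8 normalized counts (SD, n = 4) to 11.9 ± 4.27 (n = 3) in 1 copy (ENSDARG00000012297) and by 0.70 in the other (ENSDARG00000070726), and the catalytic subunit *PDE6C* by 0.61. These genes and the opsins were named after their values were seen. The opsins that define the cones did not pass. *opn1lw2*, *opn1mw1* and *opn1sw2* had log2 fold changes of -0.03, 0.10 and 0.08, and the cone transducin *GNAT2* one of -0.11, and none passed. *rlbp1b*, a retinaldehyde-binding protein that serves the cone visual cycle in Müller glia, was the gene called higher (1.24 ± 0.31), and it lost the call without eNMES replicate 1. The TPM summed over the list ran from 5257 to 6158 in controls and from 4651 to 4871 with eNMES. In *dmd* mutants 28 of the 64 varied with the clock score (43.8%), *guca1c*, *GRK7* and *guca1d* among them (adjusted p = 0.00023, 0.000116 and 0.00487). The calls of lower genes numbered 5, 8, 8 and 9 without control replicate 1, 2, 3 and 4, and 1, 5 and 1 without eNMES replicate 1, 2 and 3. *OPN4* (ENSDARG00000007553), a melanopsin, was the only call among 26 opsins outside the photoreceptors, at -0.69, and it lost the call in all 7 fits.

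**Figure D5:**
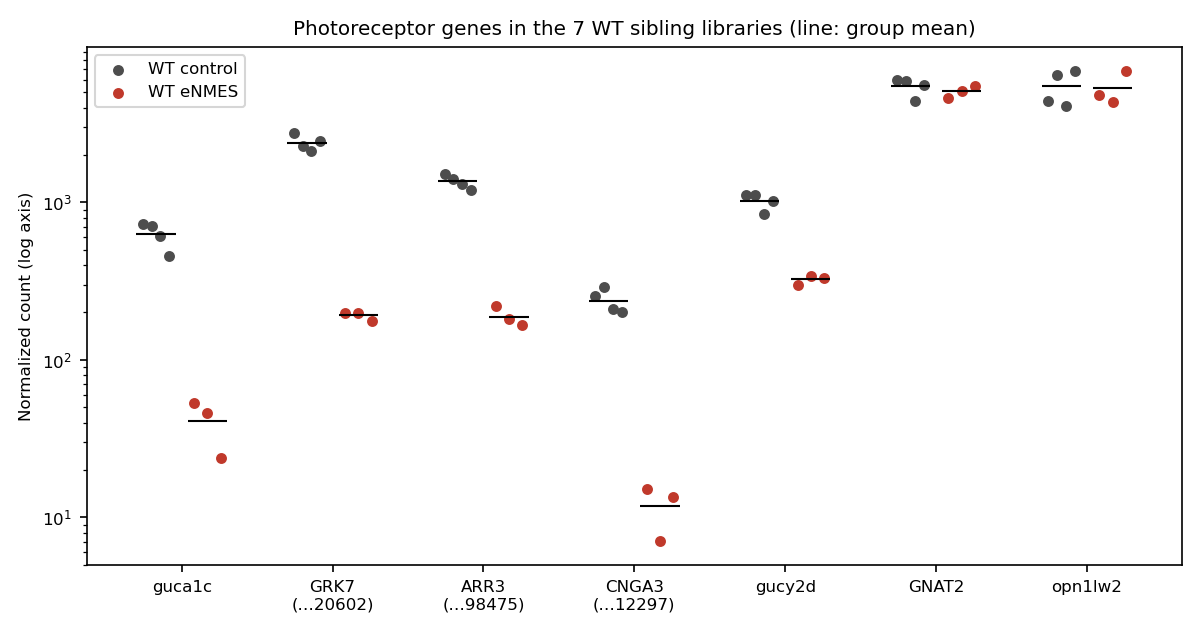
Normalized counts (log axis) of 7 photoreceptor genes in the 4 WT control and 3 WT eNMES libraries, with the group mean as a line. guca1c, GRK7, ARR3, CNGA3 and gucy2d are lower in every eNMES library than in any control, while GNAT2 and opn1lw2 overlap between the groups.

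Genes of the epidermis were lower across the list. Of 50, 5 were called lower and 0 higher (10%, against 2.95% of all genes), 24 had no overlap downward against 0 upward (48%, against 10.6% of genes with a symbol), and the median was -0.26. Desmosomes, which join skin cells, gave 3 of the 5 calls. *dsg2.1*, a desmoglein, measured 2249, 2494, 2362 and 1955 normalized counts in controls and 555, 535 and 462 with eNMES, a log2 fold change of -2.13 ± 0.66. *dsc2l*, a desmocollin, and *pkp3a*, a plakophilin, fell by 1.44 and 1.12. *cldnb*, a claudin of tight junctions, fell by 0.98 and *scel*, of the cornified layer, by 0.63. Keratins were lower with folds below the minimum. *krt4*, of the surface layer, had a mean of 69770 counts in controls and 50211 with eNMES (log2 fold change -0.47). The summed TPM ran from 13736 to 15307 in controls and from 11385 to 12576 with eNMES. The 3 desmosome genes lost the call in each of the 7 fits, and *cldnb* lost it without eNMES replicate 3 alone. The list had 3 calls without control replicate 1, 2 calls without each other control and 1 call without each eNMES library. In mutants 10 of the 50 varied with the clock score (20%, against 12.4% of all genes outside the clock), *scel* and the 3 desmosome genes among them. *dsc2l* and *krt4* were named after their values were seen.

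Ionocytes, the cells of the skin that exchange ions and ammonia with the water, had 3 of 37 genes called lower (8.11%, against 1.9% of all genes) and 12 without overlap downward (32.4%, against 10.6% of genes with a symbol) and 0 upward, with a median of -0.14 that was -0.24 without eNMES replicate 3. *RHCG* (ENSDARG00000003203), an ammonia transporter, measured 6008, 7480, 8085 and 6472 normalized counts in controls and 2436, 2434 and 1067 with eNMES, a log2 fold change of -1.82 ± 0.45 (adjusted p = 0.0307, edgeR's quasi-likelihood test). A further *RHCG* gene (ENSDARG00000100265) and the sodium-proton exchanger *slc9a3.1* fell by 1.06 and 1.44. The ionocyte factors *foxi3a* and *foxi3b* had -0.27 and 0.09 and did not pass (named after their values were seen). *RHCG* (ENSDARG00000003203) lost the call without eNMES replicate 3 (adjusted p = 0.145). The list had 1 call without control replicate 1 or eNMES replicate 1 or 2, and 2 calls without control replicate 2 or 3 or eNMES replicate 3. The summed TPM did not overlap, at 2388 to 2535 in controls and 1848 to 2029 with eNMES.

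Skeletal muscle is the tissue that eNMES drives. Of 35 genes of fast muscle none was called, 15 had no overlap downward (42.9%, against 10.6% of genes with a symbol) and 0 upward, and the median was -0.14. *pvalb1*, a parvalbumin that buffers calcium, had the smallest adjusted p, at a log2 fold change of -0.44 ± 0.12 (adjusted p = 0.041, edgeR's quasi-likelihood test). The fast myosin *myhz1.1* had means of 467790 and 465380 normalized counts and a log2 fold change of -0.01. Of slow muscle and its metabolism 2 of 24 were called (8.33%, against 2.95% of all genes), *ATP2A2*, the calcium pump of slow fibers, at -0.67, and *CPT1B*. In this list 7 genes had no overlap downward (29.2%) and 1 upward (4.17%), against 10.6% and 10.5% of genes with a symbol. The gene without overlap upward was the slow myosin *smyhc1*, with means of 30806 and 36121 counts (log2 fold change 0.23). The slow myosin *smyhc2* had 0.11, and neither myosin passed (both named after their values were seen). *ATP2A2* lost the call without control replicate 1 and without any one eNMES library. The summed TPM of the fast list ran from 89332 to 98071 in controls and from 81807 to 86968 with eNMES. Dystrophin itself (*dmd*) had 3074, 2588, 5395 and 3932 counts in controls and 4393, 4599 and 3511 with eNMES, overlapping groups.

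The list of muscle regeneration and progenitors, which also holds factors of differentiated fibers, had 2 of 23 genes called higher (8.7%, against 1.05% of all genes) and 0 lower. Its median was 0.10, and 0.02 without eNMES replicate 3. *MYF6*, a myogenic factor of differentiated fibers, measured 84, 62.3, 63.4 and 77.2 normalized counts in controls and 138, 133 and 136 with eNMES, a log2 fold change of 0.91 ± 0.23 (adjusted p = 0.0277, edgeR's quasi-likelihood test). *CXCR4* (ENSDARG00000041959), a chemokine receptor, rose by 0.66. *PAX7* (ENSDARG00000070818), the factor of muscle stem cells, had 0.38 at an adjusted p of 0.0926, below the fold required for a call, and the other *PAX7* gene (ENSDARG00000100398) had -0.09. *MYF6* lost the call without eNMES replicate 1 or 3, and it varied with the clock score in mutants (adjusted p = 0.0165). *CXCR4* kept it in 1 of the 7 fits, without control replicate 1. None of 24 genes of the neuromuscular junction was called, the median was 0.03, and *SLC5A7* (ENSDARG00000074860), the choline transporter of motor nerve endings, had the smallest adjusted p with a log2 fold change of -0.57.

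In the digestive organs few genes were called. *SLC6A19* (ENSDARG00000018621), an amino-acid transporter of the gut brush border, measured 1651, 1547, 1614 and 830 normalized counts in controls and 455, 282 and 164 with eNMES, a log2 fold change of -2.23 ± 0.49 (adjusted p = 0.0186, edgeR's quasi-likelihood test). With *MELTF* it made 2 calls among 50 genes of the intestine (4%), both lower, and 0 calls were left without eNMES replicate 3, where *SLC6A19* had an adjusted p of 0.102. One call was left without control replicate 1, 2 or 3 or eNMES replicate 1. None of 36 exocrine pancreas genes was called or lay without overlap, and their median of -0.17 was within the spread between libraries (SD 0.18). In the endocrine pancreas *gcga*, glucagon, was the only call of 24. It measured 318, 101, 132 and 123 in controls and 57.7, 72.3 and 70.8 with eNMES. Without the highest control, replicate 1, it was still called with a log2 fold change of -0.84, and it lost the call without eNMES replicate 1. Of 57 liver plasma proteins 1 was called, the protease inhibitor *serpina1l*, at 0.64, which lost the call without control replicate 1, 2 or 4. In kidney and gut transport, with 1 higher and 2 lower of 28 (10.7%), the phosphate transporters *SLC20A1* fell by 1.18 (ENSDARG00000020114) and 1.28 (ENSDARG00000010641), both lost the call without eNMES replicate 1 or 3, and the second of these varied with the clock score in mutants (adjusted p = 4.19e-05).

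Of 49 genes of neurons none was called, the median was -0.10, and 15 had no overlap downward (30.6%, against 10.6% of genes with a symbol) and 0 upward. Neuropeptides and hypothalamic genes had a median of -0.31, which was -0.10 with the clock component as a covariate. One of the 37 was called (2.7%), *pmchl*, at 11.3 counts in controls and 4.22 with eNMES, and it kept the call in 2 of the 7 fits, without control replicate 1 or 2. *SLC1A2* (ENSDARG00000052138), the glutamate transporter of astroglia, measured 466, 461, 381 and 368 in controls and 157, 183 and 136 with eNMES. Its log2 fold change of -1.40 ± 0.26 (adjusted p = 0.00944, edgeR's quasi-likelihood test) was called in all 7 fits, as were those of *TIE1* (0.68), a receptor of endothelium, and *lyve1a* (-1.77), a marker of lymphatic vessels. The 2 endothelial genes thus moved in opposite directions, and the median of their 24 genes was 0.004. *lyve1b* and *FLT4*, of the same list, had log2 fold changes of 0.01 and -0.01, and neither passed (named after their values were seen). In pigment cells *gch2* and *pnp4a*, enzymes of the pteridine and purine pigments, fell by 1.74 and 0.88, and *XDH* rose by 0.63. The *gch2* call was lost without eNMES replicate 2 or 3, that of *pnp4a* without replicate 1 or 2, and that of *XDH* in all 7 fits. Blood (19 genes), cartilage and bone (37), hair cells (30) and lens crystallins (61) had 0 calls. DNA replication (47 genes) and mitosis (48) had 1 call each, *CDC6* at -0.87 and *anln* at 0.66, and each of these was called in 2 of the 7 fits.

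Single calls stood in several further lists. *RRS1*, a ribosome assembly factor, fell by 1.35 and was the only call among 49 genes of ribosome biogenesis, and it lost the call without eNMES replicate 1. *GATA5*, a factor of heart and gut, rose by 0.64 (1 of 27 heart genes). *TDO2*, which breaks down tryptophan, fell by 0.62 (1 of 44 genes of amino-acid breakdown). The related gene *tdo2b* had a log2 fold change of 0.35 and did not pass. Of 42 genes of xenobiotic metabolism 3 were called lower (7.14%), among them the sulfotransferase *sult2st1* at -0.91 and the receptor *NR1I2* at -0.62. *DIO2*, the deiodinase that activates thyroid hormone, and *TBXT* (ENSDARG00000039806), a brachyury factor of notochord, fell by 1.18 and 1.14 from means below 35 counts in controls. The other brachyury gene, *tbxta*, went the other way and did not pass. Its means were 78.9 counts in controls and 110 with eNMES (log2 fold change 0.48). *GATA5*, *DIO2*, *TBXT*, *NR1I2*, *sult2st1* and *RRS1* varied with the clock score in mutants, and *TDO2* did not. None of the 7 was called in all 7 fits.

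Several large changes lay outside the lists and were chosen after their values were seen. *NOCT* (ENSDARG00000077726), nocturnin, a phosphatase under clock control, measured 633, 481, 409 and 304 normalized counts in controls and 58.6, 37.2 and 42.1 with eNMES, a log2 fold change of -3.31 ± 0.67 (adjusted p = 0.0133, edgeR's quasi-likelihood test), and was called in all 7 fits. *TXNIP* (ENSDARG00000070000), an inhibitor of thioredoxin that responds to glucose, measured 179, 204, 171 and 315 in controls and 637, 558 and 772 with eNMES. Both varied with the clock score in mutants (adjusted p = 0.0252 and 0.00673), and *TXNIP* lost the call without control replicate 1 or eNMES replicate 1 or 3. *tcap*, telethonin of the muscle Z-disc, measured 505, 328, 240 and 134 in controls and 45.4, 42.2 and 31.6 with eNMES. Its slope on the clock score did not pass (adjusted p = 0.46), and it lost the call without eNMES replicate 3. *EPX*, a peroxidase of granulocytes, measured 656, 413, 258 and 435 in controls and 7260, 339 and 479 with eNMES, so that its log2 fold change of 2.61 rested on eNMES replicate 1 and was -0.12 without it.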

How the data were processed

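PolyA+ RNA from pairs of whole larvae was sequenced. Per the paper, the authors trimmed reads and ran RSEM 1.2.31 with Bowtie 1.1.2 against an Ensembl zebrafish transcriptome. The deposited tables give expected counts, unscaled for depth, and TPM per gene. One *dmd* eNMES library (replicate 1) was not analysed here. Expected counts were rounded, and genes with a sum of at least 10 over the libraries were fitted in 4 groups with edgeR 4.0.16 in R 4.3.3 (TMM, robust quasi-likelihood). The paper used DESeq2. Library totals were 18118468 to 20699044 counts in WT siblings (7957160 to 22808348 over all libraries). The biological coefficient of variation was 0.154. Errors are SE unless SD is given. The SE was derived as the absolute log2 fold change divided by the square root of the quasi-likelihood F statistic. Normalized counts are counts scaled by TMM to the mean library size, and deposited TPM values were only summed over lists.

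Symbols came from a table of gene names, which matched 23909 of the genes tested. The 63 lists, the members and the tests were chosen with earlier results of these data known. Named genes are the 10 leading genes in each direction with a mean of at least 50 counts, up to 4 called members of a list in each direction by adjusted p (or the member with the smallest adjusted p), and genes the paper names. Other names were chosen after the values were seen, and a few genes that these rules name are not reported here. The clock score is the first component of 42 clock genes (log2 CPM, prior count 2) in the 17 mutant libraries. Same-numbered WT sibling libraries did not deviate together. The procedures were tested on simulated data. Alternatives were DESeq2 1.42.0, its size factors in edgeR, other filters and thresholds, the WT sibling libraries alone, a replicate block, the clock component and each WT sibling library left out.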

Additional observations from a re-analysis of the deposited data

Results flagged for a closer look

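Each of the 20 leading genes changed differently in WT siblings and in *dmd* mutants by the interaction test of edgeR. They were chosen by their change in WT siblings, which is a term of that test, so this follows largely from the choice. Among the higher genes, the differences of the log2 fold changes (WT siblings minus *dmd* mutants) were 1.65 for *si:ch211-191a16.2*, 1.19 for *PXDC1*, 1.1 for *si:ch211-191a16.3*, 1.08 for *SLC25A48*, 1.01 for *YPEL3*, 0.97 for *cited4b*, 0.88 for *LIG4*, 0.83 for *SPSB3* and 0.57 for *TMEM184C*. For the lower genes they were -0.92 for *XBP1*, -1.21 for *ciarta*, -0.89 for *NR1D2*, -1.09 for *dbpa*, -0.84 for *zgc:154093*, -0.59 for *SRD5A2*, -3.08 for *NR1D1*, -1.51 for *si:rp71-39b20.4*, -0.99 for *SPRY4* and -0.66 for *GABRR2*. Clock state is bound to treatment in WT siblings and not in *dmd* mutants, and its part in these differences was not tested.

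In 8 of 132 named genes a single WT control stood apart from the other 3 by Dixon's test. Chance alone gives this in about 1 of 20 groups, so a number of this size is near what chance gives. Control replicate 1 was apart in *cycsb* (1160 normalized counts), *NQO1* (511) and *gcga* (318), replicate 2 in *pnp4a* (62.3), replicate 3 in *serpina1l* (6850) and replicate 4 in *CRY1* (2870), *ciartb* (92.3) and *SLC6A19* (830). The value of replicate 1 was the high one in *cycsb* and *gcga* and the low one in *NQO1*. In *CRY1* and *serpina1l* the value apart was the highest, and in *ciartb*, *SLC6A19* and *pnp4a* the lowest.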

How the results depend on the processing

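The 763 calls in WT siblings (271 higher, 492 lower) became 423 (145 and 278) at an adjusted p under 0.05, 1675 (806 and 869) with no minimum fold change and 94 (47 and 47) with the clock component as a covariate. Leaving out 1 library gave between 259 and 747 calls, 88 to 259 higher and 165 to 488 lower. DESeq2 gave 933, its size factors in edgeR 763, filterByExpr 796, a minimum of 1 count 729 and the WT siblings alone 1038, each within 1.5 times. Of the genes named by rule 2 changed sign, both with the clock covariate, *cry5* to 0.12 and *LPIN1* to 0.0137, and *EPX*, named after its values were seen, changed sign without eNMES replicate 1. With the clock covariate the medians of 36 of the 63 lists moved by more than the spread between libraries, and 19 changed sign. The median of the period and cryptochrome genes went from -0.69 to 0.04, and that of the PAR bZIP and *nfil3* genes from -0.64 to 0.10. The median of the clock activators and bHLH repressors went from -0.19 to 0.38. The clock component was computed from these same clock genes, *cry5* among them, so their shifts are in part built in. Medians of the glucocorticoid list and the neuropeptides went from -0.26 and -0.31 to -0.05 and -0.10, and that of the acute phase genes from -0.91 to -1.8. The glucocorticoid median was -0.53 with filterByExpr and ran from -0.66 to -0.22 with 1 library left out. Over all alternatives, the clock covariate included, the median log2 fold change ran from 0.15 to 0.21 for autophagy, 0.09 to 0.28 for the proteasome, -0.22 to -0.15 for glycolysis, -0.16 to -0.08 for oxidative phosphorylation and -0.17 to -0.14 for fast muscle. The labels do not say what replicate numbers share, and same-numbered libraries correlated at -0.02, -0.07 and -0.07 in their deviations. With a replicate block 600 genes were called (217 higher, 383 lower).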
